A study of Mus musculus with 15 samples.

Results

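The genes described here are ATF4, the transcription factor of the integrated stress response, and genes of amino acid supply and tRNA charging that are counted among its targets. They comprise 7 regulators, 5 serine and one-carbon enzymes, 5 enzymes of asparagine, proline, cysteine and glutathione metabolism, 7 amino acid transporters, 2 genes for a secreted factor and a receptor, and 11 cytosolic tRNA synthetases. The members are the rows of the deposited table whose gene symbol is on a list of names, and that list was drawn up with earlier results of these data known. All 37 were found among 18762 genes. Of these, 36 reached an FPKM (fragments relative to transcript length and to the fragments of the library) of 1 in at least 2 libraries and were tested, and Slc7a11 did not.

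Polyadenylated RNA was sequenced from 15 cultures of C57BL/6N mouse embryonic stem (ES) cells that were wild type (WT) or Mettl5-/- (knockout, KO). METTL5 methylates an adenosine of the small subunit ribosomal RNA. Both genotypes were sampled as ES cells at day 0, as embryoid bodies at day 6, which formed without LIF on dishes coated to keep cells from attaching, and in N2B27 medium at day 6, which is used for neural differentiation. Each culture held 2 WT lines, named Ctr (replicate 1) and WT (replicate 2), and 3 KO lines (replicates 1 to 3). How the KO lines were made, and whether each is 1 clone, is not given in the sources used here. The labels call all libraries embryonic stem cells, and it is not stated whether the cultures of a line were separate in time, so a p-value here speaks only of the spread among these libraries, part of which may be technical.

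In each culture all 3 KO libraries had less Mettl5 than either WT library. Its FPKM in ES cells was 20.9 and 19.03 in WT, against 10.7, 7.21 and 9.10 in KO. In embryoid bodies the WT lines had 17.7 and 19.8, the KO lines 9.07, 5.22 and 5.41. In N2B27 the WT lines had 8.37 and 8.65, the KO lines 3.91, 6.41 and 3.29. The adjusted p was 0.675, 0.00576 and 0.204 in these cultures, and some Mettl5 transcript was measured in all KO libraries. Which bases the KO lines lack is not given in the sources used here.

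The libraries held an estimated 16100000 to 18100000 fragments each, at which 1 fragment on a transcript of 1 kb is an FPKM of 0.0552 to 0.0621. Within a group, libraries correlated across genes at r = 0.986 to 0.997, where genes do not count as replicates, and no library duplicated another. The summed FPKM of 6 pluripotency markers was 2430 to 2563 in ES cells, 764 to 1025 in embryoid bodies and 164 to 265 in N2B27. That of 5 neural markers was 119 to 135, 50.4 to 81.7 and 394 to 547 in the same order. The neural sum hides opposite changes in embryoid bodies. Against ES cells 4 of the 5 were higher there and 1 lower in each genotype, by the limma test described below. Of all tested genes 35.8% were higher and 23.6% lower in WT, and 36.2% and 28.5% in KO. The ES label therefore holds for the day 0 libraries by these markers, and the day 6 libraries are named below by their culture. Markers of the streak and mesoderm summed to 82.3 to 108 in WT embryoid bodies and 20.4 to 74.0 in KO embryoid bodies, against at most 1.56 in ES cells. In bulk RNA, fewer cells of a type and less RNA per cell cannot be told apart.

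Libraries of a culture differed in how often they were the extreme one for these genes. KO embryoid body replicate 2 was the highest of the 5 embryoid body libraries for 22 of the 36 tested members. It was highest for 22.1% of all 12929 tested genes. The WT line of replicate 2 was the lowest embryoid body library for 18 of 36 members, against 18.7% of all genes. The other cultures had such libraries too. KO ES replicate 3 was the lowest ES library for 17 of 36 members, against 14.9% of all genes. KO N2B27 replicate 1 was the highest N2B27 library for 15 members, against 14.6% of all genes. Calls and differences that moved without KO embryoid body replicate 2 are given below.

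ATF4 is made when the initiation factor eIF2 is phosphorylated by one of its kinases, which respond to lack of amino acids, to unfolded protein in the endoplasmic reticulum, to viral RNA or to lack of heme. General translation then falls while the Atf4 mRNA, whose upstream reading frames otherwise hold ribosomes back, is translated more. ATF4 pairs with C/EBP proteins on a composite element, the C/EBP-ATF response element, beside genes that make, import and charge amino acids onto tRNA. An mRNA level of Atf4 is thus no direct measure of ATF4 protein, which was not measured.

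Promoter sequence comes first, since it is a property of the members that the libraries do not enter. Many members are listed because they are known targets of ATF4, so the shares below only describe the list. RefSeq windows (GRCm38.p6, 250 bases before to 50 after each start site) were matched for 29 of the 37 members, with 32 windows. Cth, Slc7a3, Slc7a5, Slc1a5, Cars, Lars, Nars and Wars had no window there. The core TGATGNAA, in which N is any base, was searched on both strands. It was found in the windows of 13 of the 29 genes (44.8%), against 4.51% of 27025 genes and 3.97% of all 32851 windows of the same length. Those genes were Atf3, Nupr1, Trib3, Asns, Pycr1, Chac1, Slc7a11, Slc1a4, Vldlr, Aars, Gars, Iars and Yars. The E-box CACGTG was found for 4 genes (13.8%, against 8.09%) and TGACGT, a piece of the cyclic AMP response element, was found for 5 (17.2%, against 8.37%), and no match of either overlapped a TGATGNAA match in these windows. A match is a run of letters, not a shown binding site. The stretches below carry the core in capitals, on the strand of the gene, for regulators, transporters, synthetases and enzymes of asparagine, proline and glutathione whose levels are described further on. The windows of the 5 serine and one-carbon enzymes held no TGATGNAA match. Atf3 and Nupr1 are set together because they have the same 8 letters at the same distance, from base -110, and opposite changes between cultures. Their windows differ in the other motifs searched, since that of Atf3 also holds TGACGT and that of Nupr1 CACGTG.
Atf3, chr1:191183416-191183463, minus strand: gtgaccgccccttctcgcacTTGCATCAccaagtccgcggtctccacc
Nupr1, chr7:126625553-126625600, minus strand: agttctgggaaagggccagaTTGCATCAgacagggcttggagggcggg
Trib3, chr2:152344031-152344066, minus strand: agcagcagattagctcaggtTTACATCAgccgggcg
Asns, chr6:7693205-7693252, minus strand: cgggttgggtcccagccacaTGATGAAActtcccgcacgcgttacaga
Chac1, chr2:119351029-119351076, plus strand: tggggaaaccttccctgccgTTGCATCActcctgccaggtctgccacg
Pycr1, chr11:120643824-120643871, minus strand: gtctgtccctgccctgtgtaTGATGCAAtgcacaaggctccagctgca
Slc1a4, chr11:20332690-20332737, minus strand: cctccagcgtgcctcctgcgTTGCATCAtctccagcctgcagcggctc
Slc7a11, chr3:50443633-50443699, minus strand: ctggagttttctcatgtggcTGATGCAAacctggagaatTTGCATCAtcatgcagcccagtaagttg
Aars, chr8:111033710-111033871, plus strand: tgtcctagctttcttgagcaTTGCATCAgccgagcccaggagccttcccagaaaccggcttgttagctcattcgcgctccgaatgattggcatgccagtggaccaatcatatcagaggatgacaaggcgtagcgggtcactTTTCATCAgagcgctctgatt
Yars, chr4:129189886-129189932, plus strand: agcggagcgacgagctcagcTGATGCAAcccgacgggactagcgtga
The Slc7a11 stretch has the core on both strands with bases between them, and the Aars stretch has 2 matches, the second of them just after the start site. The core of Asns, TGATGAAA, differs from the TGATGCAA read in Pycr1, Yars and Slc7a11, or on the other strand as TTGCATCA in Atf3, Nupr1, Chac1 and Slc1a4. The second match of Aars and that of Gars, TTTCATCA, are the Asns core on the other strand. Trib3, with TTACATCA, has neither.

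Embryoid bodies had the lowest levels of most of these genes. The mean over libraries was lowest in embryoid bodies, of the 3 cultures, for 26 of 37 members in WT and for 26 in KO. Summed over the members, FPKM was 0.481% to 0.513% of the library total in ES cells, 0.255% to 0.288% in embryoid bodies and 0.467% to 0.511% in N2B27, so the embryoid body libraries did not overlap the other cultures. Genes below were compared on log2(FPKM + 1) with limma, with Benjamini-Hochberg adjustment over 12929 genes at 0.05, and differences are given on that log2 scale with their standard error. On this scale a gene of low FPKM shows a smaller change than its ratio.

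**Figure D1:**
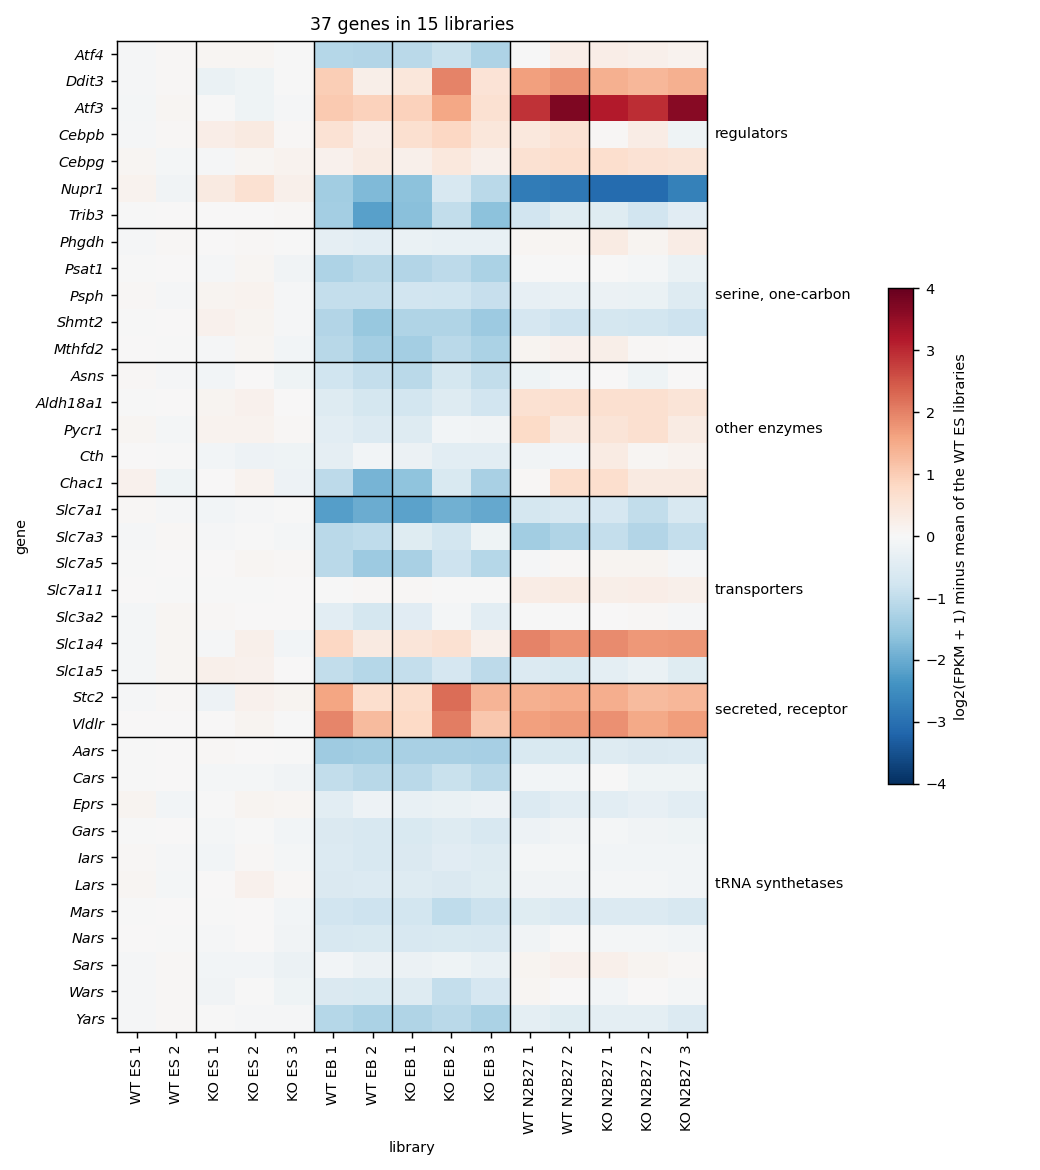
Level of each of the 37 genes (rows) in each of the 15 libraries (columns) as log2(FPKM + 1) minus the mean of the WT ES libraries (colour, red higher and blue lower). The 5 embryoid body columns are blue for most enzymes, transporters and synthetases, and the N2B27 columns are near the ES level for many of them, while Atf3, Ddit3, Slc1a4, Stc2 and Vldlr are red in the day 6 libraries.

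Between WT ES cells and WT embryoid bodies, 27 of 36 members fell and 5 rose, while 23.6% of all tested genes fell and 35.8% rose. The median difference was -0.62 over the members and 0.11 over all genes. In KO, 27 members fell and 7 rose, while 28.5% of all genes fell and 36.2% rose, and the medians were -0.60 and 0.06. With single libraries left out, the count of falls was 25 to 27 in WT and 26 to 27 in KO, and the count of rises depended on the library. In WT 2 members rose without WT ES replicate 1 and 1 without WT embryoid body replicate 1, and in KO 4 rose without KO ES replicate 3 and 4 without KO embryoid body replicate 2. Of the calls over all genes in WT 60.3% were rises, and 49.6% with scaling by the median ratio to a reference library, under which 29 members fell and 4 rose. The 27 members that fell in WT were the 27 that fell in KO, and none changed in opposite directions. The share of all genes called in both genotypes was not computed. The genotypes share no library in these comparisons, but 1 spread per gene was estimated over all 15 libraries.

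The regulators split. Atf4 had an FPKM of 220.5 and 239 in WT ES cells, 104 and 102 in WT embryoid bodies and 228 and 275 in WT N2B27. In KO it was 243, 241 and 229 in ES cells, 108, 123 and 97.6 in embryoid bodies and 278, 264 and 255 in N2B27. All 5 embryoid body libraries lay below all 10 others. Atf4 fell by 1.15 ± 0.11 in WT embryoid bodies against ES cells (adjusted p = 6.73e-07) and was higher in N2B27 than in embryoid bodies by 1.28 ± 0.11 (adjusted p = 3.64e-07). Between ES cells and N2B27 it differed by 0.12 ± 0.11 in WT (adjusted p = 0.322) and 0.16 ± 0.09 in KO (adjusted p = 0.112), neither past the threshold. The KO value passed with TPM scaling (each library scaled to a fixed sum), at 0.28 (adjusted p = 0.00885), and in a fit of the KO ES and N2B27 libraries alone (adjusted p = 0.0319).

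Trib3, a pseudokinase that binds and restrains ATF4, had an FPKM of 13.03 and 13.6 in WT ES cells, 4.52 and 2.19 in WT embryoid bodies and 7.5 and 9.14 in WT N2B27. In KO its FPKM was 13.4, 13.4 and 13.7, 3.47, 6.27 and 3.60 and 9.12, 7.35 and 9.55 in the same order of cultures. The ES libraries were highest, the embryoid body libraries lowest, and the cultures did not overlap. The WT difference was -1.77 ± 0.24 in embryoid bodies (adjusted p = 2.26e-05) and -0.62 ± 0.24 in N2B27 (adjusted p = 0.0311), both against ES cells. The call in N2B27 was lost without WT ES replicate 1 or 2 or WT N2B27 replicate 1 (adjusted p = 0.0798, 0.107 and 0.16).

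Nupr1, a small chromatin-associated stress protein, fell in both day 6 cultures. Its FPKM in WT was 14.1 and 11.6 in ES cells, 4.25 and 3.08 in embryoid bodies and 1.0 and 0.91 in N2B27. In KO it was 16.6, 20.1 and 14.8, 3.43, 7.80 and 5.47 and 0.64, 0.64 and 1.13. The 3 cultures did not overlap, with N2B27 lowest. N2B27 differed from ES cells by -2.82 ± 0.25 in WT (adjusted p = 1.61e-07) and -3.33 ± 0.20 in KO (adjusted p = 1.86e-09), and from embryoid bodies by -1.24 ± 0.25 in WT (adjusted p = 0.000753). Nupr1 was the 1 member lower in N2B27 than in embryoid bodies in WT.

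Ddit3 encodes CHOP, a C/EBP family factor induced by ATF4 in prolonged stress. Its FPKM was 4.06 and 4.33 in WT ES cells, 9.25 and 5.05 in WT embryoid bodies and 15.1 and 17.2 in WT N2B27, and 3.29, 3.61 and 4.14, 6.05, 19.5 and 6.53 and 12.9, 12.2 and 13.01 in KO. ES libraries were lowest throughout, and KO embryoid body replicate 2 stood above every other library. The rise from ES cells to N2B27 was 1.72 ± 0.37 in WT (adjusted p = 0.000805) and 1.55 ± 0.30 in KO (adjusted p = 0.000299). In embryoid bodies the difference from ES cells was 0.60 ± 0.37 in WT (adjusted p = 0.178) and 1.14 ± 0.30 in KO (adjusted p = 0.00429), and the KO value was 0.64 (adjusted p = 0.004) without KO embryoid body replicate 2. The WT value passed in a fit of those 2 WT groups alone (adjusted p = 0.0357). Ddit3 overlaps an exon of Mars on the opposite strand, and whether the counting used strand is not given in the sources used here, so reads of both cannot be told apart where they overlap.

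Atf3, a stress-induced repressor and partner of other bZIP factors, had the largest rise of the tested members between ES cells and N2B27 on the log2(FPKM + 1) scale. As a ratio of mean FPKM, the WT rise of Vldlr was 16.8-fold, from a mean of only 0.16 in ES cells, and that of Atf3 15.7-fold. Atf3 had an FPKM of 1.58 and 1.90 in WT ES cells, 4.63 and 4.21 in WT embryoid bodies and 19.1 and 35.5 in WT N2B27, and 1.72, 1.42 and 1.63, 4.16, 7.02 and 3.16 and 23.9, 20.3 and 33.3 in KO. The cultures did not overlap. N2B27 was higher than ES cells by 3.31 ± 0.29 in WT (adjusted p = 1.57e-07) and 3.35 ± 0.24 in KO (adjusted p = 1.02e-08). Cebpg, a C/EBP partner of ATF4, rose by 0.63 ± 0.11 in WT N2B27 (adjusted p = 0.000151). Cebpb, another C/EBP factor, rose by 0.43 ± 0.17 in WT embryoid bodies (adjusted p = 0.0379), but by 0.27 without WT embryoid body replicate 1. The rise was 0.39 and 0.47 without WT ES replicates 1 and 2. It did not pass without a filter on low values (adjusted p = 0.0636), with median-ratio scaling (0.12) or with TPM scaling (0.063). Cebpb overlaps an exon of Tmem189 on the opposite strand.

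**Figure D2:**
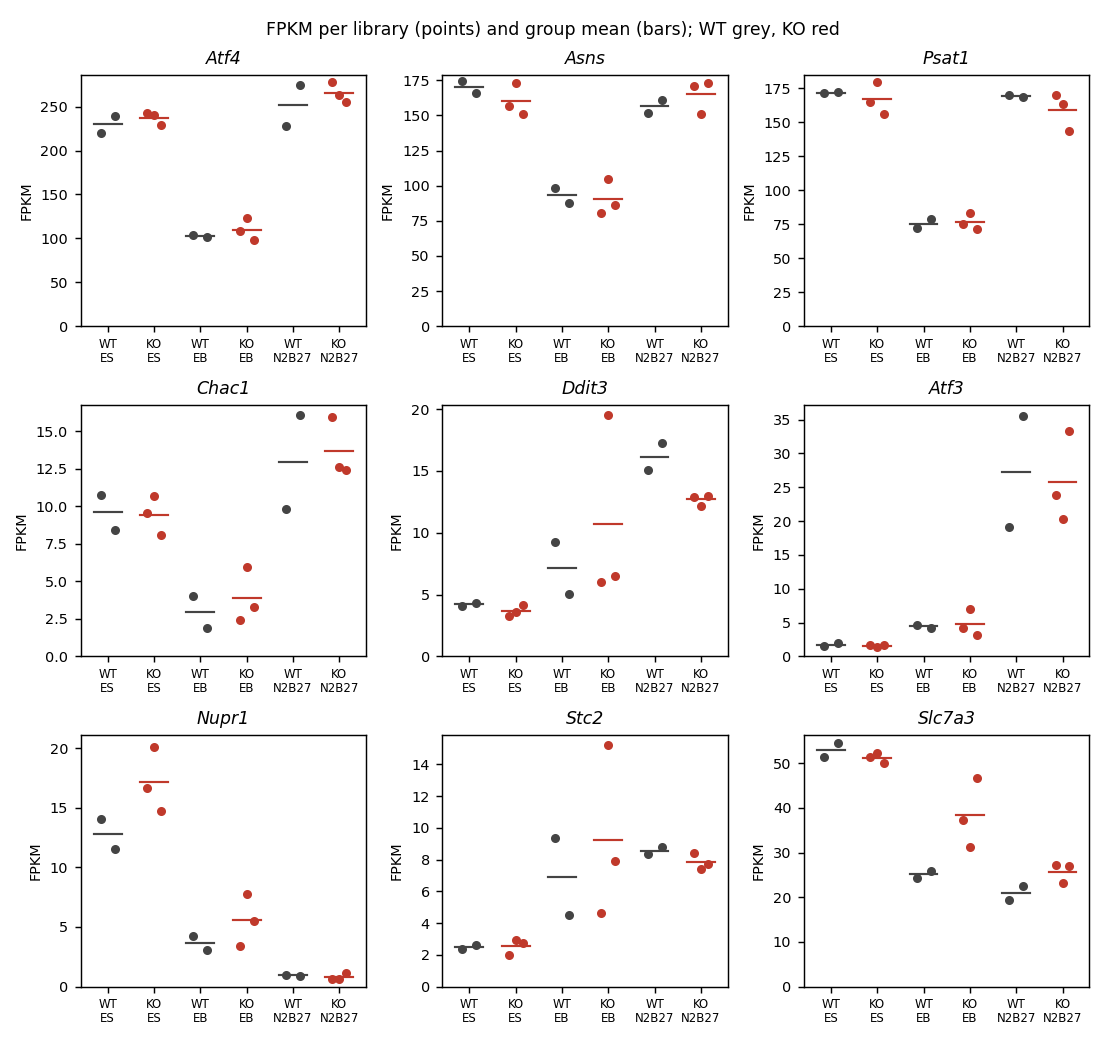
FPKM of selected genes in each library (points), by genotype and culture, with group means (bars), WT in grey and KO in red. Atf4 is lowest in the 5 embryoid body libraries, and 1 KO embryoid body library lies at 19.5 for Ddit3, above all others.

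All 5 serine and one-carbon enzymes fell in embryoid bodies and were higher again in N2B27, in both genotypes. Of all genes 23.6% fell in WT embryoid bodies and 28.5% in KO. In N2B27 against embryoid bodies 31.2% were higher in WT and 38.8% in KO. Phgdh, which takes glycolytic carbon into serine, had the smallest change. Its FPKM was 118 and 128 in WT ES cells, 95.1 and 92.4 in WT embryoid bodies and 131 and 130.4 in WT N2B27, and 124, 128 and 122, 103, 101 and 101 and 155, 133 and 150.2 in KO. All embryoid body libraries were below all others. The fall in WT embryoid bodies was -0.39 ± 0.08 (adjusted p = 0.000745).

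Psat1, the aminotransferase that follows PHGDH, had an FPKM of 171 and 172 in WT ES cells, 71.9 and 78.95 in WT embryoid bodies and 170.3 and 169 in WT N2B27. In KO it was 165, 179.7 and 156, 75.1, 83.3 and 71.2 and 170.4, 163 and 144. Embryoid body libraries were the lowest, and ES cells and N2B27 overlapped in KO. The WT difference was -1.18 ± 0.10 in embryoid bodies (adjusted p = 2.38e-07) and -0.02 ± 0.10 in N2B27 (adjusted p = 0.884), both against ES cells.

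Mthfd2, a mitochondrial folate enzyme, had an FPKM of 51.6 and 51.2 in WT ES cells, 23.3 and 19.6 in WT embryoid bodies and 55.6 and 57.5 in WT N2B27, and 49.7, 54.5 and 48.1, 19.6, 23.7 and 20.9 and 61.3, 53.6 and 51.5 in KO. All embryoid body libraries lay below all others. It fell by 1.23 ± 0.11 in WT embryoid bodies against ES cells (adjusted p = 4.4e-07) and was higher by 1.36 ± 0.11 in N2B27 than in embryoid bodies (adjusted p = 2.38e-07). Shmt2, the mitochondrial enzyme that splits serine to glycine, also fell in WT N2B27 against ES cells, where it fell by 0.74 ± 0.12 (adjusted p = 7.58e-05). Psph, the phosphatase of the last serine step, fell by 0.31 ± 0.10 there (adjusted p = 0.0152). The call on Psph was lost with TPM scaling, at -0.22 (adjusted p = 0.063). It was also lost without WT ES replicate 1 (-0.26) and without WT N2B27 replicate 1 (-0.31) or 2 (-0.32). Shmt2 and Psph each overlap an exon of another gene on the opposite strand, Ndufa4l2 and Cct6a.

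Of the 5 enzymes of asparagine, proline, cysteine and glutathione, 4 fell in embryoid bodies in each genotype. Of all genes 23.6% fell there in WT and 28.5% in KO. Cth, which makes cysteine from cystathionine, did not pass (adjusted p = 0.089 in WT and 0.0585 in KO). The call on Cth depended on the fit. It fell with median-ratio scaling (adjusted p = 0.0127 in WT and 0.0149 in KO), with TPM scaling (0.0364 and 0.00938), in KO with the line as a replicate block (0.0363), and without embryoid body replicate 2 in WT (0.031) or replicate 1 in KO (0.0273). Asns, asparagine synthetase, had an FPKM of 174 and 166 in WT ES cells, 98.5 and 87.6 in WT embryoid bodies and 152 and 161 in WT N2B27. In KO it was 156, 173 and 151, 80.2, 105 and 86.3 and 171, 151 and 173. Embryoid body libraries were the lowest, and ES cells and N2B27 overlapped in KO. The WT fall in embryoid bodies was -0.87 ± 0.12 (adjusted p = 2.22e-05).

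Chac1, which degrades glutathione, had an FPKM of 10.8 and 8.45 in WT ES cells, 4.05 and 1.88 in WT embryoid bodies and 9.81 and 16.1 in WT N2B27, and 9.56, 10.7 and 8.07, 2.45, 5.97 and 3.27 and 15.96, 12.6 and 12.4 in KO. Embryoid bodies were lowest, with KO replicate 2 nearest to the other cultures. The WT difference was -1.47 ± 0.31 for embryoid bodies against ES cells (adjusted p = 0.00103) and 1.83 ± 0.31 for N2B27 against embryoid bodies (adjusted p = 0.000195). The proline enzymes Aldh18a1 and Pycr1, which open and close the pathway from glutamate, fell in embryoid bodies and rose in N2B27 above ES cells, Aldh18a1 by 0.63 ± 0.10 (adjusted p = 4.41e-05) and Pycr1 by 0.56 ± 0.16 (adjusted p = 0.00641) in WT. The Pycr1 rise did not pass without WT N2B27 replicate 1, at 0.36 (adjusted p = 0.0954), nor without WT ES replicate 2 (adjusted p = 0.0579), and its fall in WT embryoid bodies did not pass without WT ES replicate 1 or embryoid body replicate 2 (adjusted p = 0.116 and 0.0956).

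Among the transporters, 5 of 6 tested fell in embryoid bodies and 1, Slc1a4, rose, in both genotypes. Of all genes 23.6% fell and 35.8% rose there in WT, and 28.5% fell and 36.2% rose in KO. The rise of Slc1a4 was 0.59 in WT and 0.41 in KO. It did not pass without WT embryoid body replicate 1, at 0.36 (adjusted p = 0.0924), nor without KO embryoid body replicate 2 or KO ES replicate 3 (adjusted p = 0.0581 and 0.0561). Slc7a1, an importer of arginine and lysine, had the largest fall of the tested members in embryoid bodies. Its FPKM was 26.2 and 24.6 in WT ES cells, 4.77 and 5.65 in WT embryoid bodies and 15.2 and 16.1 in WT N2B27, and 23.3, 24.7 and 25.2, 4.96, 5.91 and 5.46 and 15.6, 12.3 and 15.9 in KO. The 3 cultures did not overlap. The WT difference between embryoid bodies and ES cells was -2.09 ± 0.12 (adjusted p = 5.92e-09).

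Slc7a3, another importer of cationic amino acids, had an FPKM of 51.3 and 54.6 in WT ES cells, 24.4 and 25.9 in WT embryoid bodies and 19.4 and 22.6 in WT N2B27. In KO it was 51.3, 52.2 and 49.97, 37.4, 31.3 and 46.6 and 27.1, 23.2 and 26.9. ES libraries were the highest, and the KO embryoid bodies lay above the WT ones. N2B27 differed from ES cells by -1.30 ± 0.14 in WT (adjusted p = 1.19e-06) and -0.97 ± 0.11 in KO (adjusted p = 2.25e-06).

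Slc1a4, which carries alanine, serine and cysteine, had an FPKM of 5.39 to 6.89 in ES cells, 6.85 to 11.04 in embryoid bodies and 21.7 to 26.1 in N2B27, and rose by 1.89 ± 0.16 in WT N2B27 (adjusted p = 9.4e-08). Slc7a5, the light chain of the large neutral amino acid transporter, its heavy chain Slc3a2, and the glutamine carrier Slc1a5 fell in WT embryoid bodies, with differences of -1.27, -0.56 and -1.06 (adjusted p = 1.53e-06, 0.00102 and 5.73e-06). Against ES cells in N2B27, Slc7a5 differed by 0.00 ± 0.13 (adjusted p = 0.998) and Slc3a2 by -0.01 ± 0.12 (adjusted p = 0.925). Slc7a11, the cystine importer, had an FPKM of 0.03 and 0.02 in WT ES cells, 0.02 and 0.05 in WT embryoid bodies and 0.26 and 0.29 in WT N2B27, and 0.01, 0.01 and 0.03, 0.05, 0.02 and 0.01 and 0.21, 0.22 and 0.19 in KO. All N2B27 libraries were above all others, below the level tested.

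Stc2, a secreted glycoprotein, and Vldlr, a lipoprotein receptor, rose in both day 6 cultures. Stc2 ran from 2.00 to 2.92 in ES cells, from 4.49 to 15.2 in embryoid bodies and from 7.40 to 8.79 in N2B27. Vldlr ran from 0.14 to 0.24, from 1.03 to 3.77 and from 2.31 to 3.15. Vldlr thus passed the filter of 1 FPKM only through day 6 libraries, so the filter itself favoured a rise from ES cells. In WT embryoid bodies Stc2 rose by 1.12 ± 0.36 (adjusted p = 0.0148) and Vldlr by 1.61 ± 0.30 (adjusted p = 0.000345), and in WT N2B27 by 1.46 ± 0.36 (adjusted p = 0.00212) and 1.67 ± 0.30 (adjusted p = 0.000165). The embryoid body rise of Stc2 in WT was 0.66 without WT embryoid body replicate 1 (adjusted p = 0.182) and did not pass without WT ES replicate 1 (adjusted p = 0.0671).

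**Figure D3:**
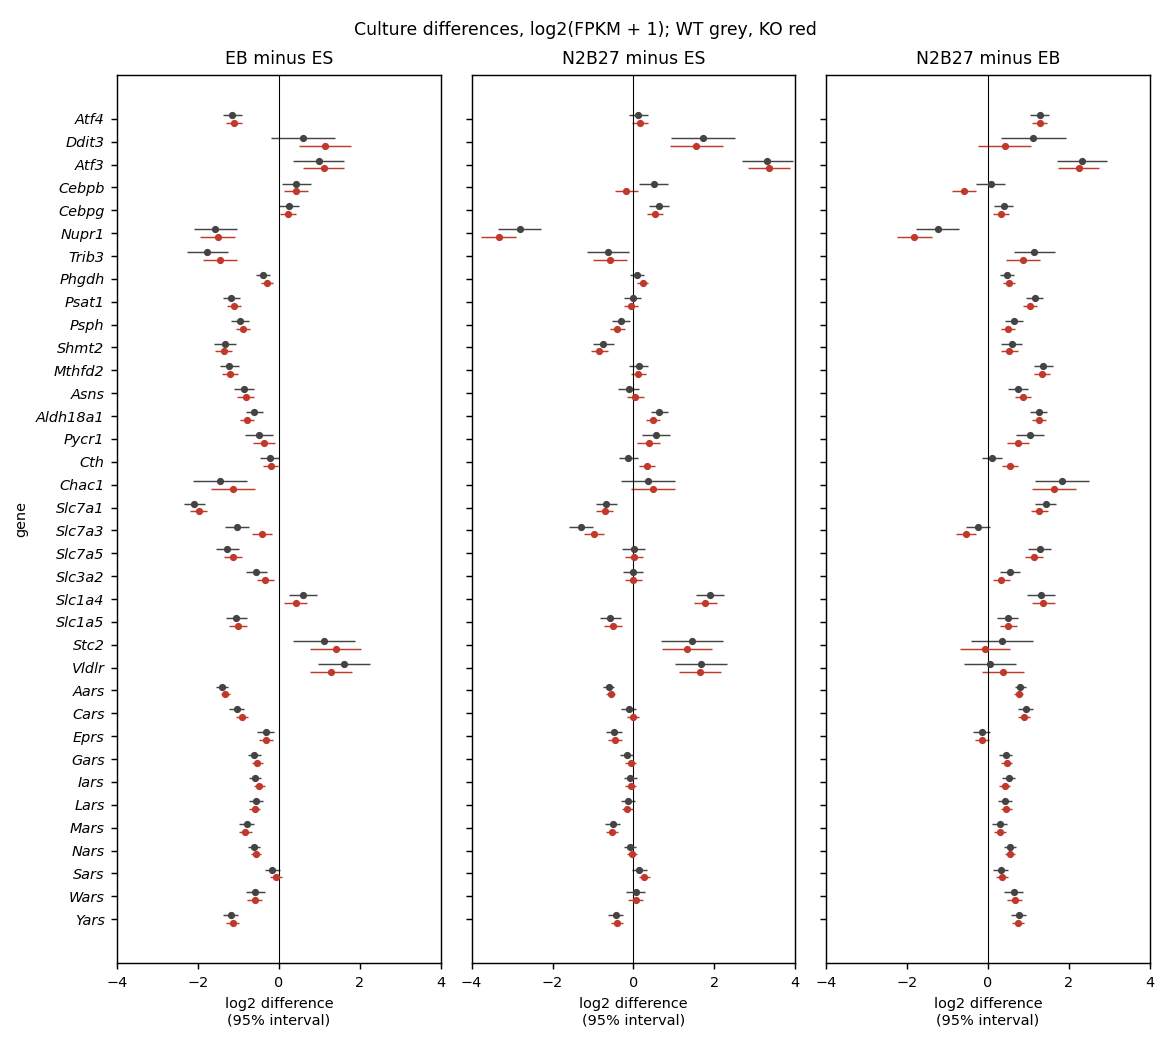
Difference between cultures for each tested gene on the log2(FPKM + 1) scale with its 95% interval, WT in grey and KO in red. Most genes lie left of 0 for embryoid bodies against ES cells and right of 0 for N2B27 against embryoid bodies, with Slc7a1 at -2.09 and 1.43 in WT.

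Of the cytosolic tRNA synthetases 10 of 11 fell in embryoid bodies in each genotype, while 23.6% of all genes fell in WT and 28.5% in KO. Sars, for serine, was the other, with -0.17 ± 0.08 in WT (adjusted p = 0.101) and -0.08 ± 0.07 in KO (adjusted p = 0.322). Sars too was called lower with TPM scaling in WT and KO (adjusted p = 0.0213 and 0.0229) and with median-ratio scaling in WT (-0.30, adjusted p = 0.00841). Aars, for alanine, fell most, from 236 and 241 in WT ES cells to 87.4 and 90.8 in WT embryoid bodies, and from 247, 242 and 234 to 96.6, 96.1 and 94.2 in KO. The N2B27 libraries lay between, at 155 and 157 in WT, against 167, 160.3 and 162 in KO, and no culture overlapped another. The WT difference was -1.41 ± 0.06 (adjusted p = 7.84e-10), and Aars shares exon sequence with Exosc6 on the same strand, so part of its reads could belong to that gene. Yars and Cars, for tyrosine and cysteine, had differences of -1.19 and -1.05 in WT (adjusted p = 5.59e-08 and 1.67e-07), and Yars overlaps C77080. Mars (methionine), Nars (asparagine), Gars (glycine), Iars (isoleucine), Wars (tryptophan) and Lars (leucine) fell by between 0.57 and 0.80 in WT, and Eprs, for glutamate and proline, fell by 0.33 ± 0.10 (adjusted p = 0.00933). Eprs was at -0.22 without WT ES replicate 1 (adjusted p = 0.118) and at -0.22 without WT embryoid body replicate 1 (adjusted p = 0.115).

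In N2B27 against ES cells the members were divided. In WT 9 rose and 12 fell, while 41.5% of all genes rose and 29.2% fell, with medians of -0.05 and 0.12. In KO 11 rose and 12 fell, while 43.5% of all genes rose and 33.2% fell, with medians of -0.01 and 0.11. Of these, 8 rose and 11 fell in both genotypes, and the share of all genes that did so was not computed. With median-ratio scaling 8 rose and 18 fell in WT, while 8 rose and 16 fell in KO. With TPM scaling 10 rose and 9 fell in WT, while 13 rose and 11 fell in KO. The members' median was then -0.21 and 0.05 in WT, so its sign depends on the scaling. Of the synthetases, 5 fell and none rose in WT, while 5 fell and 1, Sars, rose in KO. With median-ratio scaling Cars, Iars, Lars and Nars were also lower in WT and Gars, Iars and Nars in KO, and the rise of Sars in KO was lost (adjusted p = 0.0711). With TPM scaling Sars rose in WT (0.24, adjusted p = 0.0152), and Gars in WT and Lars in KO no longer passed.

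Against embryoid bodies, 29 members were higher and 1 lower in WT N2B27, while 31.2% of all genes were higher and 25.3% lower, with medians of 0.62 and 0.04. In KO 29 were higher and 3 lower, while 38.8% of all genes were higher and 29.6% lower, with medians of 0.54 and 0.06. The members higher in both genotypes numbered 28, and the share of all genes higher in both was not computed. TPM scaling moved the median of all genes from 0.04 to 0.19 in WT and that of the members to 0.79, and the share of rises among all calls from 55.3% to 68.1% in WT and from 56.7% to 70% in KO. The KO members that were lower were Nupr1, at -1.82 (adjusted p = 2.37e-06), Cebpb, at -0.59 (adjusted p = 0.00148), and Slc7a3, at -0.55 (adjusted p = 0.000685). These culture comparisons share libraries, since each culture enters 2 of them.

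Related genes that are no members were counted against the shares over all genes, in WT 23.6% lower and 35.8% higher in embryoid bodies, and 29.2% lower and 41.5% higher in N2B27, both against ES cells. Of 12 other cytosolic synthetase genes, their scaffold included, 6 fell in WT embryoid bodies and none rose, and in WT N2B27 against ES cells 9 fell and none rose. Against embryoid bodies in WT N2B27, 1 of the 12 was higher and 5 were lower, where 10 of the 11 member synthetases were higher and none lower. Of all genes 31.2% were higher and 25.3% lower in that comparison. The phenylalanine enzyme subunit Farsa fell by 0.73 in WT embryoid bodies (adjusted p = 2.86e-06). Among 17 mitochondrial synthetases 6 fell and 3 rose in WT embryoid bodies, and 8 fell and 1 rose in N2B27 against ES cells, with Aars2 at -1.39 (adjusted p = 2.23e-09).

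**Figure D4:**
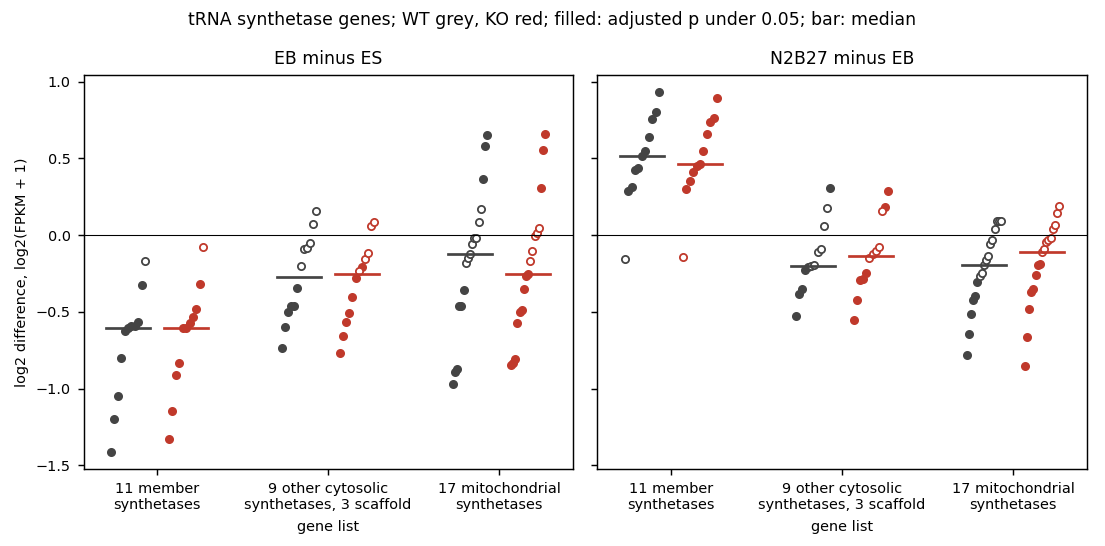
Difference between cultures (log2(FPKM + 1)) for each tRNA synthetase gene, by list, with WT in grey and KO in red, filled points for an adjusted p under 0.05 and a bar at the median. In the comparison of N2B27 with embryoid bodies 10 of the 11 member synthetases are filled points above 0 in each genotype, and the medians of both other lists are below it. Of all genes 31.2% were higher in WT and 38.8% in KO in that comparison.

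The counts of the next 5 lists stand against the same shares over all genes in WT, 35.8% higher and 23.6% lower in embryoid bodies and 41.5% and 29.2% in N2B27. Of 10 other ATF4 targets tested, 6 fell and 2 rose in WT embryoid bodies, and 6 rose and 2 fell in WT N2B27 against ES cells. Atf5, another bZIP factor translated like ATF4, had an FPKM of 25.2 and 24.9 in WT ES cells, 9.72 and 8.48 in WT embryoid bodies and 63.7 and 66.1 in WT N2B27, and differed by 2.71 ± 0.14 between the last 2 (adjusted p = 5.43e-09). Sesn2, which restrains mTORC1, was higher in WT N2B27 than in embryoid bodies by 2.00 ± 0.10 (adjusted p = 4.58e-09). Ddit4, also known as a hypoxia-induced mTORC1 inhibitor, had an FPKM of 10.8 and 9.16 in WT ES cells and 141 and 52.8 in WT embryoid bodies, and 71.6, 218 and 91.5 in KO embryoid bodies. KO embryoid body replicate 2 was again highest, followed by WT replicate 1, an order also seen for Ddit3, Stc2, Vldlr, Chac1 and Trib3. Of 13 genes of the eIF2 kinases and eIF2 control, 7 fell and 1 rose in WT embryoid bodies, with the kinase Eif2ak1 at -0.86 (adjusted p = 0.000317).

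Of the 19 unfolded protein response genes, 5 rose and 4 fell in WT embryoid bodies, and 11 rose and 3 fell in WT N2B27 against ES cells. Herpud1, which acts in the removal of misfolded protein, rose by 1.12 ± 0.17 there (adjusted p = 3.99e-05). Of 12 other glycine and folate enzymes 3 rose and 5 fell in WT embryoid bodies, among them the cytosolic Shmt1, which fell by 1.10 (adjusted p = 6.17e-05). Of 15 other amino acid transporters tested 7 rose and 1 fell, with the glutamine carrier Slc38a5 at 1.60 (adjusted p = 7.06e-07).

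The loss of Mettl5 was compared within each culture. In ES cells 0 of 36 members passed the limma test, as did 0% of all genes in either direction. An unadjusted p under 0.05 was found for 0 members, against 447 of all 12929 tested genes. The median KO minus WT difference was 0.02 over the members and 0.00 over all genes. The KO and WT libraries did not overlap for 6 members, of which 3 were higher in KO (Cebpb, Nupr1 and Slc7a5) and 3 lower (Cth, Cars and Sars), while this held for 12.7% and 11.3% of all genes.

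In embryoid bodies 1 member, Slc7a3, was higher in KO and none lower, while 0.65% of all genes were higher and 1.62% lower. Among those calls 28.7% were rises, and 41.9% and 18.1% with median-ratio and TPM scaling. The median difference was 0.05 over the members and -0.04 over all genes. An unadjusted p under 0.05 was found for 2 members, Slc7a3 and Slc3a2, against 1895 of all 12929 tested genes. KO libraries lay above WT for 4 members (Phgdh, Psph, Slc7a3 and Aars) and below for none, against 8.34% and 18.1% of all genes. Slc7a3 was at 37.4, 31.3 and 46.6 in KO and 24.4 and 25.9 in WT, a difference of 0.58 ± 0.13 (95% interval 0.30 to 0.85, adjusted p = 0.0334). The call depended on the libraries and the fit. The adjusted p was 0.144 without WT replicate 1, 0.178 without WT replicate 2 and 0.106 without KO replicate 3, and 0.0474 and 0.00453 without KO replicates 1 and 2. It was 0.28 in a fit of embryoid bodies alone.

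Beside this result, pluripotency markers summed to 844 to 1025 in KO embryoid bodies and 764 to 799 in WT, mesoderm markers to 20.4 to 74.0 and 82.3 to 108, and endoderm markers to 9.33 to 18.9 and 26.6 to 38.0. Of the 5 mesoderm markers 3 were lower in KO by the same limma test and none higher, and 1 of the 4 endoderm markers tested was lower. All 6 pluripotency markers were detected and none passed in either direction, with 4 above 0 and a median difference of 0.05. Of the 5 endoderm markers 1 was listed at 0 in WT. The part of this in the Slc7a3 difference was not tested. The difference of KO and WT in the change from ES cells was 0.62 ± 0.18 for Slc7a3 (adjusted p = 0.278).

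Without KO embryoid body replicate 2, the KO minus WT difference in embryoid bodies moved by more than its standard error for 11 of the 35 members that did not pass with it, and none of the 11 passed without it. For Ddit3 the difference was 0.39 with it and -0.11 without it, and for Stc2 it was 0.31 and -0.09. Chac1, Nupr1 and Trib3 stayed above 0 and came nearer to it, from 0.30 to 0.01, 0.45 to 0.21 and 0.34 to 0.11. The transporters Slc3a2, Slc7a5 and Slc1a5 went from 0.25 to 0.13, 0.19 to 0.06 and 0.17 to 0.05. Wars went from -0.12 to -0.01. Away from 0 went Vldlr, from -0.31 to -0.67 (adjusted p = 0.0693), and Asns, from -0.05 to -0.16. In the comparison of KO N2B27 with KO embryoid bodies, Ddit3 and Vldlr were higher in N2B27 when that library was left out (adjusted p = 0.000263 and 0.00147), and did not pass with it.

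In N2B27 0 members passed, while 0.0464% of all genes were higher and 0.0541% lower in KO. The median difference was -0.01 over the members and -0.02 over all genes. An unadjusted p under 0.05 was found for 4 of 36 members, against 1144 of all 12929 tested genes. They were Cth at 0.31 and Cebpb at -0.45, with adjusted p of 0.324 and 0.351, and Phgdh at 0.16 and Slc7a3 at 0.28, with 0.552 and 0.543. KO libraries lay above WT for 6 members and below for 4, against 8.88% and 13.2% of all genes. Slc7a3, Phgdh and Aars were above in both day 6 cultures, and Cebpb was above in ES cells and below in N2B27. The share of all genes that separate in 2 cultures was not computed, and the same lines recur in each culture, so this recurrence is only described. For Phgdh the nearest N2B27 values were 133 in KO and 131 in WT.

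**Figure D5:**
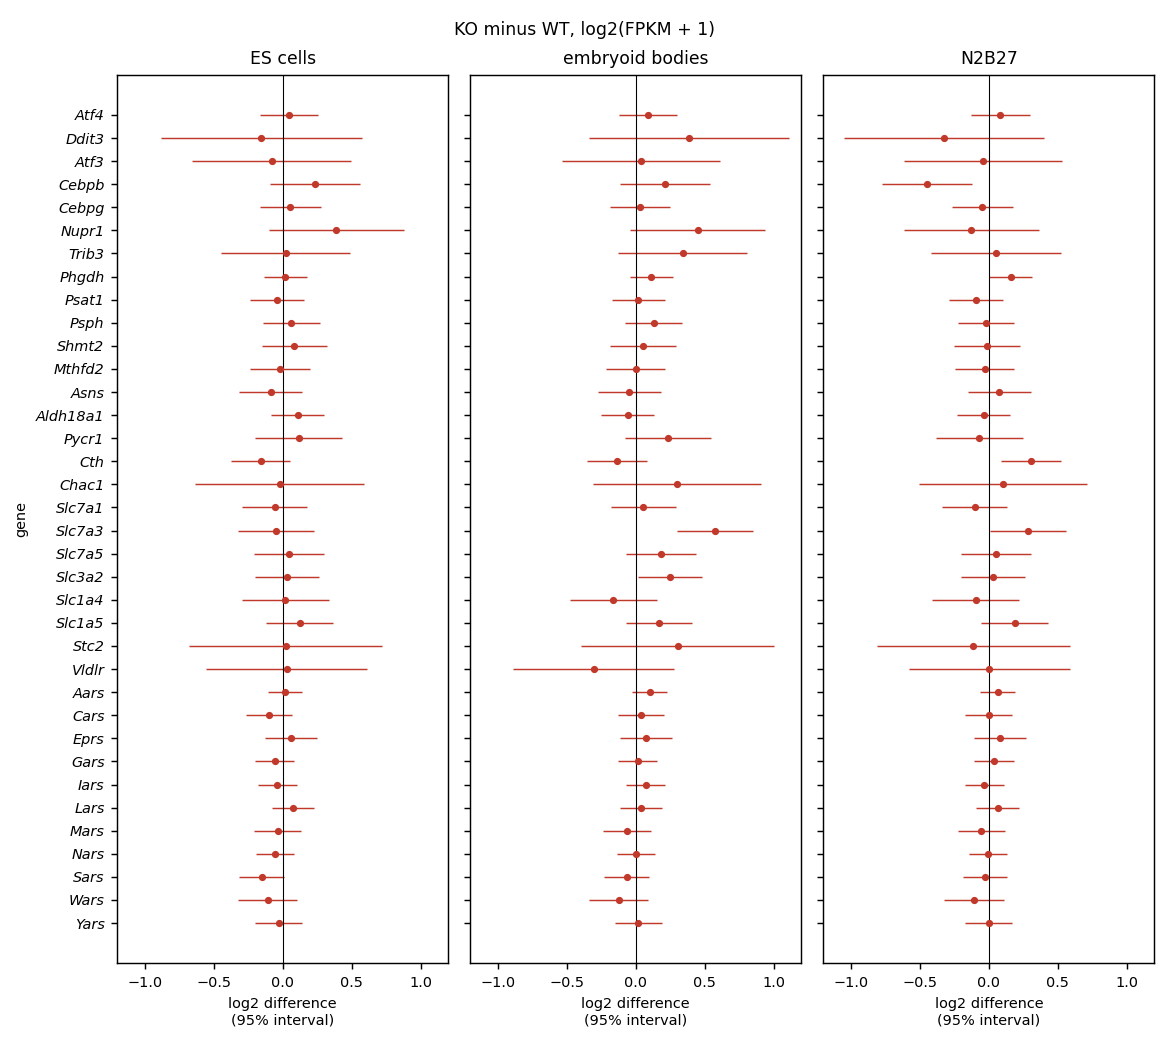
KO minus WT difference for each of the 36 tested genes in ES cells, embryoid bodies and N2B27 on the log2(FPKM + 1) scale with its 95% interval. The intervals clear of 0 are those of Slc7a3 and Slc3a2 in embryoid bodies and of Cebpb, Phgdh, Cth and Slc7a3 in N2B27, and Slc7a3 in embryoid bodies, at 0.58, has the highest value of the 3 panels. Of all 12929 tested genes, 1895 had an unadjusted limma p under 0.05 in embryoid bodies and 1144 in N2B27.

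The size of a genotype effect that these data leave room for follows from the intervals. The reach of the 95% interval to either side of a KO minus WT difference had a median of 0.218 over the members, from 0.126 for Aars to 0.726 for Ddit3. It was the same in the 3 cultures, because 1 spread per gene was estimated over all 15 libraries, so it does not show the spread within 1 culture. The standard deviation of Ddit3 FPKM was 0.19 in WT and 0.43 in KO ES cells, against 2.97 and 7.65 in embryoid bodies. The interval lay within 1 log2 unit on both sides of 0 for 36 members in ES cells, for 34 in embryoid bodies (not Ddit3 and Stc2) and for 35 in N2B27 (not Ddit3). For genes of low FPKM this bound says little about the ratio, since 1 is added to the FPKM. At 0.14 to 0.24 FPKM in ES cells, Vldlr could lose all its transcript there without a difference of 1. For Atf4 it was -0.16 to 0.26 in ES cells, -0.13 to 0.30 in embryoid bodies and -0.13 to 0.30 in N2B27. For Asns it was -0.32 to 0.14, -0.28 to 0.18 and -0.15 to 0.30, and for Psat1 -0.24 to 0.15, -0.18 to 0.21 and -0.29 to 0.10. A p that misses the threshold does not show that the genotypes were alike.

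The response to culture was then compared between genotypes. For the embryoid body change 0 of 36 members differed, while 0.0155% of all genes had a higher and 0.139% a lower change in KO. Before adjustment 1 member had a p under 0.05, against 991 of all 12929 tested genes. For the N2B27 change 0 members differed, while 0% of all genes had a higher and 0.00773% a lower change. Cth at 0.47 (adjusted p = 0.804) and Cebpb at -0.68 (adjusted p = 0.808) were under 0.05 before adjustment, as were 620 of all 12929 tested genes. Over the means of the 3 cultures of each line, 5 lines in all, 0 members passed, while 0.00773% of all genes were higher and 0.0464% lower in KO. Slc7a3 was at 0.27 ± 0.07 (adjusted p = 0.219) and Wars at -0.11 ± 0.05 (adjusted p = 0.428) in that comparison. Both were under 0.05 before adjustment, as were 1494 of all 12929 tested genes.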

How the data were processed

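The authors deposited 1 table of FPKM values for 18762 genes in 15 libraries, per the file headers. RNA was extracted with Trizol, selected with oligo(dT) beads, fragmented and copied from random hexamers, per the labels' protocols. Per the submitters' processing notes, Bowtie2, RSEM and the mm10 build were used. Tool versions, annotation and strand setting are not given in the sources used here. As background, RSEM divides ambiguous fragments by estimation, which affects overlapping and near-identical genes.

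FPKM was taken as log2(FPKM + 1) and tested with limma 3.58.1 in R 4.3.3 with a mean-variance trend, on the group means of all libraries (9 residual degrees of freedom) or on the 5 line means (3), with Benjamini-Hochberg adjustment. A gene was kept if 2 or more libraries reached 1 FPKM, which 12929 genes did. The values are not counts, so no count test was run. The procedure was tested on simulated data. Depth was estimated from low values that are whole multiples of 1 fragment within 0.1 fragments: 59.6% to 68.4% of 141 to 186 values per library, against a median of 13% to 16.4% over the totals tried. The members and the other gene lists were chosen with earlier results of these data known. All 37 members are named, the regulators and leading targets with all library values; elsewhere the called genes with the largest differences are named, up to 5 per direction for members and up to 3 per list. Promoter windows are RefSeq, GRCm38.p6, and exon overlaps are from the GENCODE annotation. Other pseudocounts, filters, scalings, fits and left-out replicates were tried as alternatives. Deviations of the same line in different cultures correlated at -0.0294 to 0.0610 in WT and -0.178 to 0.265 in KO, and lines were not blocked.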

Additional observations from a re-analysis of the deposited data

How the results depend on the processing

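The count of members higher in KO embryoid bodies, 1 with the values as reported, was 0 without a filter on low values, 0 with TPM scaling and 0 in a fit of the embryoid body libraries alone, and ran from 0 to 1 when each replicate was left out. The adjusted p of Slc7a3 was 0.0506, 0.0603 and 0.28 in the first 3 of these. No called member changed sign under any alternative tried. Of the members called in embryoid bodies against ES cells, 26 of 32 in WT and 30 of 34 in KO kept their call under every alternative, as did 16 of 21 and 18 of 23 in N2B27 against ES cells, and 26 of 30 and 32 of 32 in N2B27 against embryoid bodies. With the line as a replicate block, 32 and 34 members were called in embryoid bodies against ES cells in WT and KO, 20 and 22 in N2B27 against ES cells, and 30 and 32 in N2B27 against embryoid bodies. The block changed 4 calls: in KO embryoid bodies against ES cells Cebpg was lost (adjusted p = 0.0712) and Cth gained (0.0363), and in N2B27 against ES cells Gars was lost in WT (0.0643) and Lars in KO (0.0654). KO against WT could not be blocked, because each line has 1 genotype. Without KO embryoid body replicate 2, Cebpb, Cebpg and Slc1a4 lost their rise in KO embryoid bodies (adjusted p = 0.072, 0.193 and 0.0581). Median-ratio scaling moved the share of higher calls over all genes from 60.3% to 49.6% in WT embryoid bodies against ES cells. In WT embryoid bodies against ES cells, Atf3, Cebpb, Pycr1, Stc2 and Eprs lost their call without WT ES replicate 1, and Cebpb without WT ES replicate 2. In the same comparison Atf3, Cebpb, Slc1a4, Stc2 and Eprs lost it without WT embryoid body replicate 1, and Pycr1 without WT embryoid body replicate 2. In N2B27 against ES cells, Trib3, Pycr1, Psph, Cebpb and Gars in WT and Trib3, Pycr1 and Lars in KO lost their call without at least 1 replicate, as did Ddit3, Cebpg, Mars and Sars in WT N2B27 against embryoid bodies and Pycr1, Cebpb, Cebpg and Slc1a4 in KO embryoid bodies against ES cells. With 2 or 3 libraries a group, leaving out 1 of 2 leaves a lone library that is assumed to vary like the others. Depth limits Slc7a11, at most 0.29 FPKM.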
